A study of Mus musculus with 4 samples.

Results

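The 8 mouse genes described here meet where mature dendritic cells (DC) attract lymphocytes. They are the chemokine ligands Ccl17 and Ccl22, the chemokine receptors Ccr4 and Ccr8, and Il4i1, Fscn1, Cacnb3 and Tmem123, which are known from mature DC with regulatory functions. They were taken as a named list, 8 of the 31053 genes counted, and were followed in all 4 libraries as UMIs (unique molecular identifiers, each standing for a captured RNA molecule) per 10,000 UMIs of a cell class, which is the unit of every level below. The libraries were made from live CD45+ immune cells, sorted from 2 skin tumors and 2 control skins (normal skin). The tumors grew on the flank of young adult mice of C57/BL6 genotype after subcutaneous injection of 2323 cells, a line established from a graft of a tumor of a genetically engineered mouse model. They are therefore transplants of 1 line, and the alleles of the model are in the tumor cells and not in the immune cells. Control skins came from uninoculated C57/BL6 mice, so injection and tumor growth cannot be told apart. The groups also differ in tissue, normal skin against a tumor mass. A change within a cell class thus cannot be told apart from other cells of that class being present. The libraries are called control 1, control 2, tumor 1 and tumor 2. The labels do not tie a control to the tumor of the same number, and p-values measure the spread between these libraries.

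CCL17 and CCL22 are secreted chemokines that bind CCR4, a receptor of skin-homing T cells, Th2 cells and regulatory T cells (Treg). CCR8 is a related receptor on T cells that live in skin, on group 2 innate lymphoid cells (ILC2) and on Treg within tumors, and in mice it binds CCL1 and CCL8. DC that mature switch on the homing receptor CCR7 and carry antigen to lymph nodes, and in tumors such cells also bear inhibitory molecules. IL4I1 is a secreted enzyme that breaks down aromatic amino acids and dampens T cells. Fascin (Fscn1) bundles actin in the long processes of mature DC, CACNB3 is a beta subunit of voltage-gated calcium channels, and TMEM123, also called porimin, is a mucin-like membrane protein.

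Ccl22 (ENSMUSG00000031779, chr8:94745590-94751699, plus strand) and Ccl17 (ENSMUSG00000031780, chr8:94810453-94812036, plus strand) are neighbours on mouse chromosome 8 in GRCm38 (GENCODE vM21), 58753 bases apart, with Cx3cl1 and the pseudogene Gnb1-ps3 between them. The 250 bases before the RefSeq start of each (GRCm38.p6) are shown because both ligands were found in the same DC. All 8 genes had a RefSeq promoter. Each promoter was searched on both strands for TTCNNNNGAA, a form of the spaced palindrome bound by STAT factors, and for TATAAA. Forms with a shorter or longer gap were not searched for, so the search does not show whether a promoter lacks them. The sequence ttctttgaa in the Ccl17 promoter has a shorter gap and is left unmarked. The Ccl17 promoter held the only TTCNNNNGAA match of the 8 genes, printed in capitals, 154 to 145 bases before the start, and 5.85% of all 32851 promoters of this length held one. TATAAA was found in the Fscn1 promoter alone of the 8, and in 12.4% of all promoters. A match of letters is not a site, and binding was not measured here.
Ccl17 promoter, chr8:94810203-94810452, plus strand: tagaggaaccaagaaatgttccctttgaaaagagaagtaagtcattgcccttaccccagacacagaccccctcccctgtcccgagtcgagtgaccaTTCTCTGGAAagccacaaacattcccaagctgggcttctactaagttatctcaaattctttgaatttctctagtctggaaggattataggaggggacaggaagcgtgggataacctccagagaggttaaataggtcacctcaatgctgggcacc
Ccl22 promoter, chr8:94745434-94745683, plus strand: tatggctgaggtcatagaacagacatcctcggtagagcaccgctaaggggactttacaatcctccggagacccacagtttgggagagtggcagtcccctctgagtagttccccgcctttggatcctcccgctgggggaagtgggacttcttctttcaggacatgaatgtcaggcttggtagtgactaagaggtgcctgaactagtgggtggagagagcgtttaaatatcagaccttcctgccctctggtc

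The other genes are Ccr4 (ENSMUSG00000047898, chr9:114490316-114504916, minus strand), Ccr8 (ENSMUSG00000042262, chr9:120092114-120094906, plus strand), Il4i1 (ENSMUSG00000074141, chr7:44816387-44840809, plus strand), Fscn1 (ENSMUSG00000029581, chr5:142960343-142973185, plus strand), Cacnb3 (ENSMUSG00000003352, chr15:98630840-98644529, plus strand) and Tmem123 (ENSMUSG00000050912, chr9:7764041-7794333, plus strand). Il4i1 overlaps Nup62 on the same strand and Atf5 and Tbc1d17 on the other, so its counts are uncertain where reads fell in shared parts. The microRNA gene Mir5618 lies within Tmem123.

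The libraries held 2258 to 5176 cells and 34893543 to 73904272 UMIs, and 1861 to 4514 immune cells per library were analysed, with 41 to 93 cells with collagen or keratin RNA set aside. Between 1 and 7 cell barcodes were shared by each pair of libraries. Cells were placed into classes by marker genes that include none of the 8 genes. The Ccr7+ DC class required Ccr7 (at least 3 UMIs) with MHC class II RNA, and held 29, 32, 123 and 39 cells in control 1, control 2, tumor 1 and tumor 2. In that class 6 of 8 further markers of mature DC (Cd40, Relb, Cd83, Cd274, Nudt17 and Il15ra) had their highest level of 15 classes, and Socs2 and Cd200 their second highest. The class is not uniform: 14, 10, 0 and 1 of its cells had at least 3 UMIs of the Langerhans cell gene Cd207. At least 3 UMIs of Cd209a, which also serves in the cDC2 gate below, were found in 7, 15, 37 and 13 cells. For Xcr1, a gene of type 1 conventional DC (cDC1), the numbers were 2, 1, 3 and 2. The type 2 conventional DC class (cDC2), chosen by Cd209a, Flt3 and Clec10a, held 49, 89, 142 and 46 cells. Of its check markers, Mgl2 and Itgax ranked first of 15 classes, Sirpa 4 and Irf4 5. At the edge of the Ccr7+ DC gate, 3, 3, 23 and 7 cells were inside with 3 or 4 Ccr7 UMIs, and 10, 10, 20 and 12 cells with 2 Ccr7 UMIs were outside.

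Of the 8 genes, 5 had their highest mean level over the libraries in Ccr7+ DC, and the gap to the next class was larger than the larger SD of both (SD, n = 4 for each). These were Ccl22 (5.63 ± 2.63 against 0.599 ± 0.961 in cDC2), Il4i1 (1.63 ± 0.201 against 0.265 ± 0.270 in cDC2), Fscn1 (2.69 ± 0.806 against 0.375 ± 0.532 in cDC2), Cacnb3 (1.03 ± 0.318 against 0.125 ± 0.146 in cDC2) and Tmem123 (5.65 ± 1.22 against 4.0 ± 0.826 in Treg). Ccl17 was also highest in Ccr7+ DC, at 2.75 ± 1.31, but its distance to the next classes was within their SD. The receptors were found in lymphocytes. The mean Ccr4 level was 0.870 ± 0.608 in CD4 T cells, 0.590 ± 0.271 in Treg and 0.515 ± 0.455 (n = 3) in ILC2. The mean Ccr8 level was 1.35 ± 1.01 (n = 3) in ILC2, 0.954 ± 0.536 in CD4 T cells and 0.624 ± 0.297 in Treg. Neighbours in both orders differed by less than their SD. All SD in this paragraph run over control skins and tumors together, so they hold any tumor difference as well as the spread of replicates. The ILC2 means rest on both control skins and tumor 1 only, unlike those of the other classes named. Unassigned cells, other T cells, plasmacytoid DC and cells in no named class were not ranked. In unassigned cells Fscn1 was at 0.145, 0.182, 1.63 and 1.46, and Cacnb3 at 0.123, 0.172, 0.616 and 0.232. The 12 plasmacytoid DC of tumor 1 had Il4i1 at 2.02, with 73.7% of the UMIs in 1 cell. Unnamed lymphoid cells low in Cd3 RNA had Ccr8 at 2.16, 1.12, 0.522 and 0.738.

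**Figure D1:**
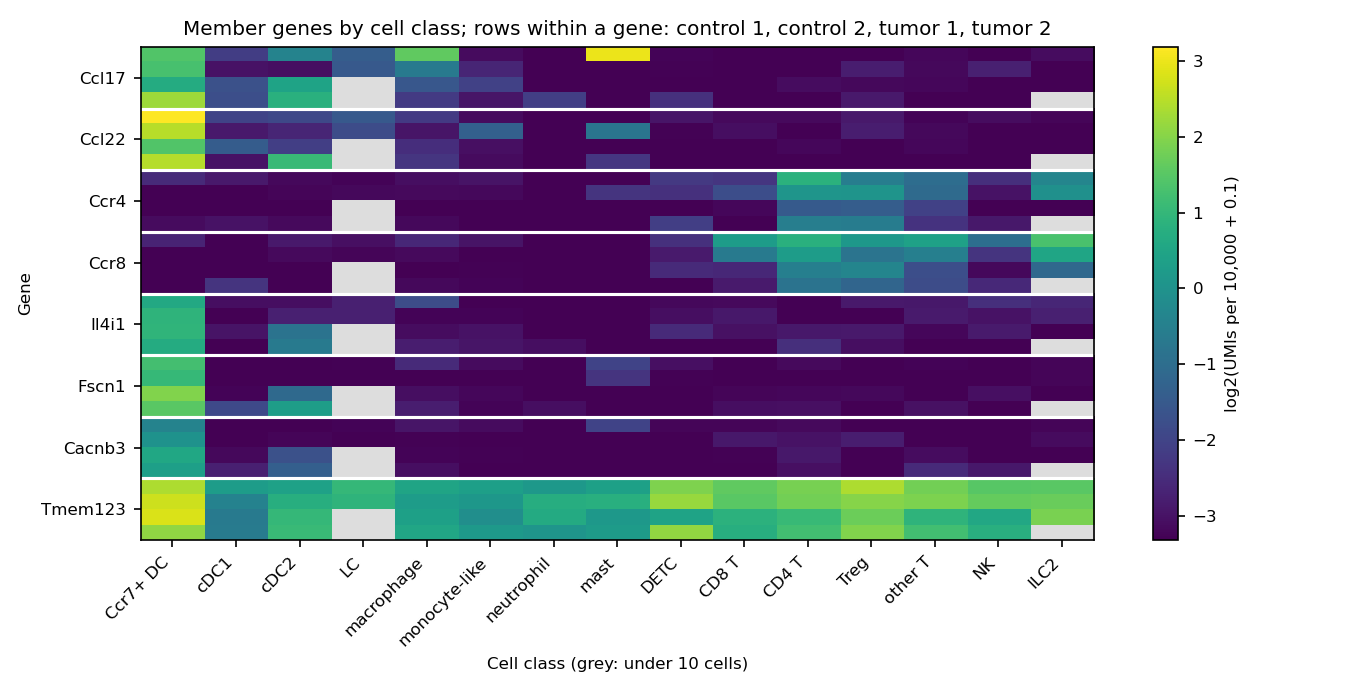
Levels of the 8 genes in each cell class and library, as log2 of UMIs per 10,000 plus 0.1 (colour); each gene has 4 lines, for control 1, control 2, tumor 1 and tumor 2 from top to bottom, and grey marks classes of fewer than 10 cells in a library. Ccl22, Il4i1, Fscn1 and Cacnb3 stand out in the Ccr7+ DC column, Tmem123 is spread over many classes, and Ccr4 and Ccr8 are seen in T cells and ILC2.

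The ligand Ccl22 was concentrated in few cells. Its level in Ccr7+ DC was 8.99, 5.51, 2.57 and 5.44 in control 1, control 2, tumor 1 and tumor 2, from 19 of 29, 17 of 32, 51 of 123 and 19 of 39 cells with a UMI. Control 1 was highest and tumor 1 lowest, and tumor 2 was just below control 2. Ccr7+ DC made up 1.02%, 1.10%, 2.72% and 2.10% of the immune cells, and held 63.7%, 53.2%, 51.3% and 42.3% of all Ccl22 UMIs. Neutrophils, which should lack the gene, had no Ccl22 UMI in any of the 4 libraries, at a median of 2995 to 4291 UMIs per cell against 17214 to 20970 in Ccr7+ DC. After thinning of each cell to 1000 UMIs, 16, 7, 13 and 11 Ccr7+ DC still had a Ccl22 UMI. Langerhans cells of control skin held Ccl22 at 0.250 and 0.184, and numbered 440 and 398 there against 1 and 5 in the tumors.

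Ccl17 came from more classes and from fewer cells. Its level in Ccr7+ DC was 2.57, 2.34, 1.49 and 4.59, and a single cell held 40.2%, 69.9%, 40.4% and 29.8% of those UMIs. The tumors were the lowest and the highest of the 4. Over all classes, the 10 cells with most Ccl17 held 82.7%, 91.3%, 62.2% and 55.4% of the Ccl17 UMIs of a library. Macrophages, a class gated by the complement genes C1qa, C1qb and C1qc, held 34.9%, 20.1%, 53.1% and 24.3% of them, and Ccr7+ DC 13.2%, 14.6%, 18.6% and 43.4%. In macrophages the level was 2.93, 0.539, 0.238 and 0.114, from 6, 8, 51 and 30 cells with a UMI of 100, 264, 2157 and 774 cells. Both tumors lay below both control skins there, but in the controls 1 cell held 80.3% and 59.5% of the UMIs, and the difference did not pass the test (log2 fold change -3.42 ± 0.79 SE, edgeR quasi-likelihood test, adjusted p = 0.15). DESeq2 did call it, at -3.48 (adjusted p = 0.049). In tumor 1 the 3 cells with most Ccl17 (258, 235 and 164 UMIs) lay in the macrophage gate, at 34972, 30120 and 39690 UMIs per cell. They had 148, 78 and 20 C1q, 5, 0 and 0 Mrc1 and 28, 5 and 93 Mgl2 UMIs. The control 1 cell with 392 Ccl17 UMIs had 329, 6 and 52 of these, of 44140. Mrc1 is a check marker of macrophages and Mgl2 of cDC2, and whether such cells are macrophages was not tested.

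**Figure D2:**
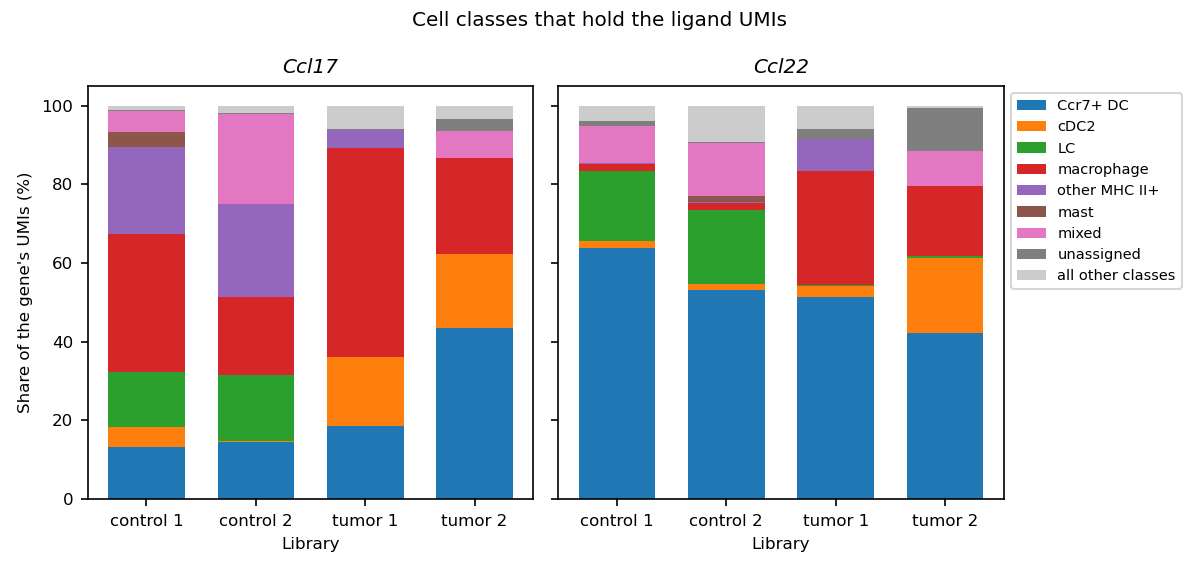
Share of all Ccl17 (left) and Ccl22 (right) UMIs held by each cell class, in percent, with 1 bar per library and grey for all other classes. For Ccl22 the Ccr7+ DC part is 42.3% to 63.7%, and for Ccl17 it is 13.2% to 43.4%, with a macrophage part of 20.1% to 53.1%.

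Most cells with Ccl17 also had Ccl22 in Ccr7+ DC, and at most 50% of them did in cDC2 or macrophages. Of cDC2 with Ccl17, 50%, 0%, 31.6% and 27.3% had Ccl22 in control 1, control 2, tumor 1 and tumor 2. Of macrophages with Ccl17, 16.7%, 50%, 45.1% and 33.3% did. Among all cells of a class, Ccl22 was found in 65.5%, 53.1%, 41.5% and 48.7% of Ccr7+ DC. It was found in 8.16%, 4.49%, 5.63% and 8.70% of cDC2 and in 6%, 3.03%, 4.03% and 7.49% of macrophages. Cells with Ccl17 thus had Ccl22 more often than their class as a whole, save for cDC2 of control 2. Of the 4, 4, 8 and 4 cDC2 with Ccl22, 50%, 0%, 75% and 75% had Ccl17. In Ccr7+ DC, Ccl22 was found in 9 of 10, 7 of 8, 22 of 26 and 14 of 14 cells with a Ccl17 UMI, which is 90.0%, 87.5%, 84.6% and 100%. In the other direction, Ccl17 was found in 47.4% and 41.2% of the cells with Ccl22 in the control skins, in 43.1% in tumor 1 and in 73.7% in tumor 2, so that most cells with Ccl22 lacked Ccl17 in 3 of 4 libraries. Cacnb3 and Fscn1 went together as well: 7 of 9, 6 of 6, 31 of 35 and 7 of 7 Ccr7+ DC with a Fscn1 UMI had a Cacnb3 UMI.

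Against cDC2 of the same libraries, 5 of the 6 genes tested were higher in Ccr7+ DC, beside 5.83% of all 8245 genes called in either direction and 4.26% called higher. The authors had already named Fscn1, Cacnb3 and Tmem123 as markers of mature DC in these same libraries. The calls of those genes are therefore no independent support. Ccl22 was higher by 4.47 ± 0.75 on the log2 scale (22.2-fold, adjusted p = 0.011, edgeR with library as a block, as for the following). Fscn1 was higher by 4.04 ± 0.89 (adjusted p = 0.032), Cacnb3 by 3.61 ± 0.61 (adjusted p = 0.011), Il4i1 by 3.19 ± 0.60 (adjusted p = 0.018) and Tmem123 by 1.85 ± 0.22 (adjusted p = 0.0037). Ccl17 did not pass, at 2.10 ± 0.71 (adjusted p = 0.12). Without control 2 only 2 of the 5 calls held, those of Cacnb3 and Tmem123, and the highest adjusted p of Ccl22 was then 0.059. Without tumor 1 the call of Fscn1 was also lost.

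Other genes of DC maturation stood higher in the same comparison, in which 4.26% of all genes were called higher. Of 6 maturation genes, 5 were higher, namely Il12b, the IL12 subunit (log2 difference 5.70), Cd40 (1.65), Relb (1.54), Cd80 (1.45) and Cd83 (0.91), and none was lower. Of 7 regulation genes, 3 were higher, namely Cd200, an inhibitory ligand (3.33), Socs2, a brake on cytokine signaling (2.50), and Pdcd1lg2, which encodes PD-L2 (1.18). Of 6 genes of migration and the cytoskeleton, 4 were higher (Marcksl1, Cxcl16, Myo1g and Marcks, from 1.84 down to 1.02), and of 4 genes tied to type 2 responses 2 were (Tnfrsf4, 2.52, and Bcl2l1, 2.02). The median log2 difference was 1.5, 1.18, 1.10 and 1.20 in these lists against -0.02 over all genes tested. Socs2 and Cd200, like Cd40, Relb and Cd83, are also among the 8 check markers.

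Within the Ccr7+ DC class, the 8 genes differed in how closely they went with further markers of maturation. Cells were sorted by how many of the 8 check markers they had at least 1 UMI of, a division made after the values were seen and given as a description. Fscn1 was found in 4.55%, 23.3% and 77.8% of cells with 0 to 3, 4 to 5 and 6 to 8 markers in control skin (22, 30 and 9 cells), and in 3.51%, 8.20% and 79.5% in tumors (57, 61 and 44 cells). Cacnb3 was found in 13.6%, 16.7% and 88.9% of the same cells in control skin and in 0%, 6.56% and 90.9% in tumors. Ccl22 was found in 54.5%, 50% and 100% in control skin and in 15.8%, 31.1% and 95.5% in tumors, so that in control skin Ccl22 was also seen in many cells with few markers. Il4i1 rose from 22.7% to 100% and from 17.5% to 93.2%. Ccl17 reached only 44.4% and 47.7% in the cells with 6 to 8 markers. Depth went with the markers in control skin, where the median was 15708, 23483 and 32195 UMIs per cell, and less so in tumors, with 14598, 19312 and 18235, and its part in the shares was not tested.

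**Figure D3:**
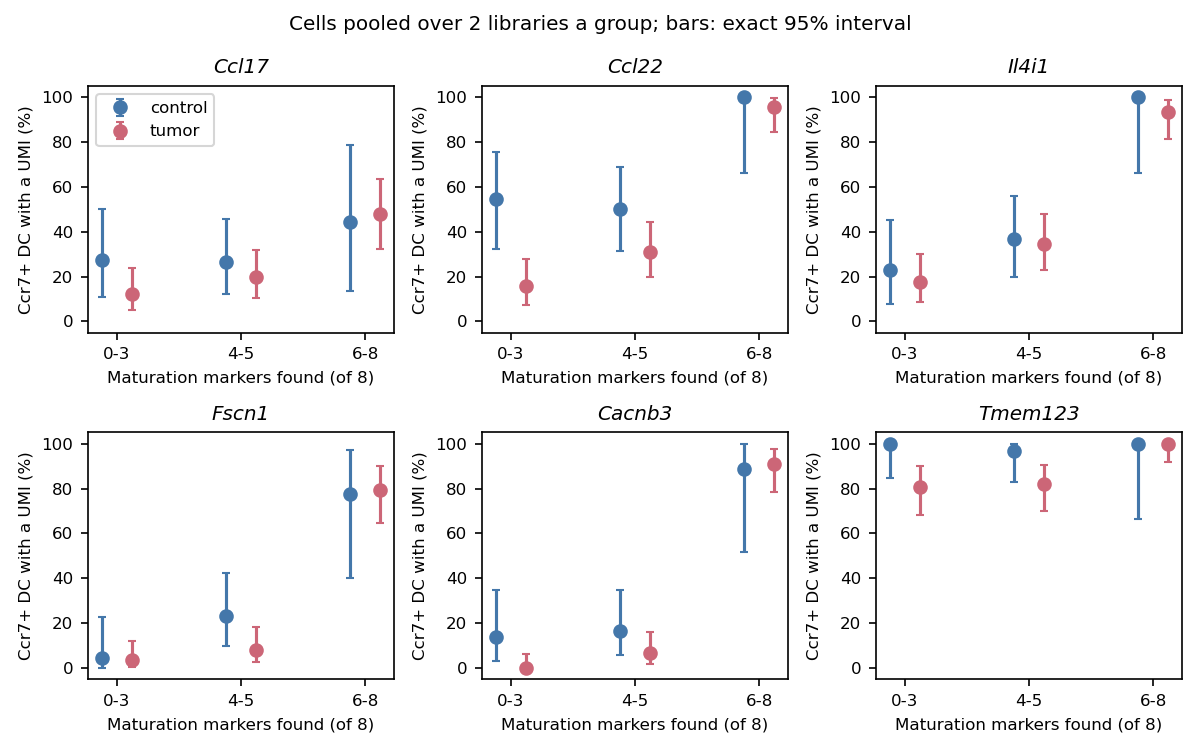
Share of Ccr7+ DC with at least 1 UMI of a gene (percent) against the number of 8 maturation markers found in the cell, pooled over the 2 libraries of each group, with exact 95% intervals. Fscn1 and Cacnb3 go from at most 13.6% in cells with 0 to 3 markers to at least 77.8% in cells with 6 to 8, whereas Ccl17 ends at 44.4% and 47.7%.

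By level the division was as sharp for fascin. In the 4, 5, 33 and 11 cells with 6 to 8 markers, the Fscn1 level was 6.93, 6.76, 12.4 and 9.04, against 1.15, 0.612, 0.199 and 0 in the other cells of the class. Cacnb3 was at 0.948, 3.34, 4.46 and 3.83 against 0.586, 0.230, 0.109 and 0. Every library had both genes higher in the cells with more markers. Ccl22 was at 13.6, 12.4, 5.41 and 14.6 against 7.89, 3.62, 1.39 and 1.35, and Tmem123 at 11.4, 17.6, 18.1 and 9.89 against 3.60, 3.25, 2.34 and 1.71. Cells with 6 to 8 markers that had Ccr7 and low C1q RNA, whatever their MHC class II RNA, made up 0.140% and 0.240% of immune cells in control skins and 0.975% and 0.752% in tumors (4, 7, 44 and 14 cells). Both tumors were above both control skins in this share.

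Within the Ccr7+ DC class, tumors and control skins were not told apart by the test for any of the 6 genes tested, and Ccr4 and Ccr8 had too few counts to be tested there. The makeup of the class differed between the groups. Cells with at least 3 UMIs of the Langerhans cell gene Cd207 numbered 14 and 10 in control skins and 0 and 1 in tumors. Those with at least 3 UMIs of the cDC2 gate gene Cd209a numbered 7 and 15 in control skins and 37 and 13 in tumors. Their part in the differences below was not tested. The values of Fscn1 were 2.26, 1.94, 3.78 and 2.78, those of Cacnb3 0.655, 0.901, 1.38 and 1.18, and those of Il4i1 1.41, 1.79, 1.82 and 1.52. Both tumors were above both control skins for Fscn1 and Cacnb3 and not for Il4i1. With 2 libraries a group such an order often arises without a difference, and its share over all genes was not counted. This limit holds throughout, wherever the groups are said not to overlap or both tumors to lie on 1 side of both control skins. Tmem123 was at 5.10, 6.33, 6.94 and 4.23, and its groups overlapped. None of the 6 genes tested passed an adjusted p of 0.05 in edgeR, beside 2.72% of all 6402 genes, and none did in DESeq2. Only Ccl22 had an unadjusted p under 0.05 (0.034), with a log2 fold change of -0.96 ± 0.37 and an adjusted p of 0.24. The differences of Fscn1 (0.57 ± 0.26), Cacnb3 (0.63 ± 0.30), Ccl17 (0.18 ± 0.45), Tmem123 (-0.12 ± 0.32) and Il4i1 (-0.02 ± 0.28) had adjusted p from 0.33 to 0.98, and none of these differences is thereby shown to be absent. No gene of the maturation (6 tested), regulation (6), migration (6) and type 2 (4) lists passed in this class.

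The cDC2 class differed, and there 3 of 6 genes tested were higher in tumors, beside 15.4% of all 8578 genes called and 5.95% called higher. Fscn1 was at 0, 0, 0.370 and 1.13 in control 1, control 2, tumor 1 and tumor 2, with no UMI in the 49 and 89 control cells. With a floor of 3 counts over the control group, the tumor level (184 UMIs) was at least 51.4-fold higher (edgeR quasi-likelihood test, adjusted p = 0.0088). In tumor 2 a single cell held 93.5% of the Fscn1 UMIs. Cacnb3 was at 0, 0.00600, 0.203 and 0.291, with 1 UMI in controls and 74 in tumors, a ratio of 62.0 with a counting interval of 10.8 to 2482 (adjusted p = 0.0070). Il4i1 was at 0.0185, 0.0480, 0.460 and 0.533, a log2 fold change of 3.46 ± 0.45 (adjusted p = 0.0053). Both tumors lay above both control skins for all 3 genes, an order whose share over all genes was not counted. Ccl22 was at 0.166, 0.0600, 0.130 and 2.04, where 76.2% of the tumor 2 UMIs came from 1 cell, and Ccl17 at 0.655, 0.0180, 1.26 and 1.66, and neither passed (adjusted p = 0.12 and 0.19). With the highest cell of each library left out, Ccl17 did pass, at 2.99 (adjusted p = 0.029).

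These cDC2 values moved with a small number of cells that had many maturation markers. Cells with 6 to 8 of the 8 markers numbered 0, 0, 11 and 2 in the cDC2 class. Of the 11 and 4 tumor cells with a Fscn1 UMI, 4 and 2 had fewer than 6 markers, and the Fscn1 level of such cells was 0.0586 and 0.0380. Many of the UMIs also lay in cDC2 that had Ccr7 RNA below the Ccr7+ DC gate. Such cells numbered 11, 13, 20 and 8. In tumor 1 and tumor 2 they held 67 of 91 and 90 of 93 Fscn1 UMIs and 36 of 50 and 19 of 24 Cacnb3 UMIs. For Il4i1 they held 23 of 113 and 17 of 44. With the cells of 6 to 8 markers left out, an alternative added after the data were seen, Fscn1 and Cacnb3 no longer had enough counts to be tested. Il4i1 was still higher, by 2.63 (adjusted p = 0.027), while Ccl22 turned to -0.77. Without control 1 none of the 3 calls held, and without control 2 those of Fscn1 and Cacnb3 were lost. Of the pathway lists in cDC2, Cd200 and Socs2 were higher in tumors, 2 of 6 regulation genes, beside 5.95% of all genes called higher. Cd200 had 45 and 9 UMIs in tumors and none in control skins (at least 15.1-fold higher, with a floor of 3 counts over the group), and Socs2 had a log2 fold change of 2.76. Cd86 (-1.04) and Cd83 (-0.75), 2 of 5 maturation genes, and Adam8 (-2.35) and Marcks (-0.92), 2 of 6 migration genes, were lower. Beside these, 15.4% of all genes were called in either direction.

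**Figure D4:**
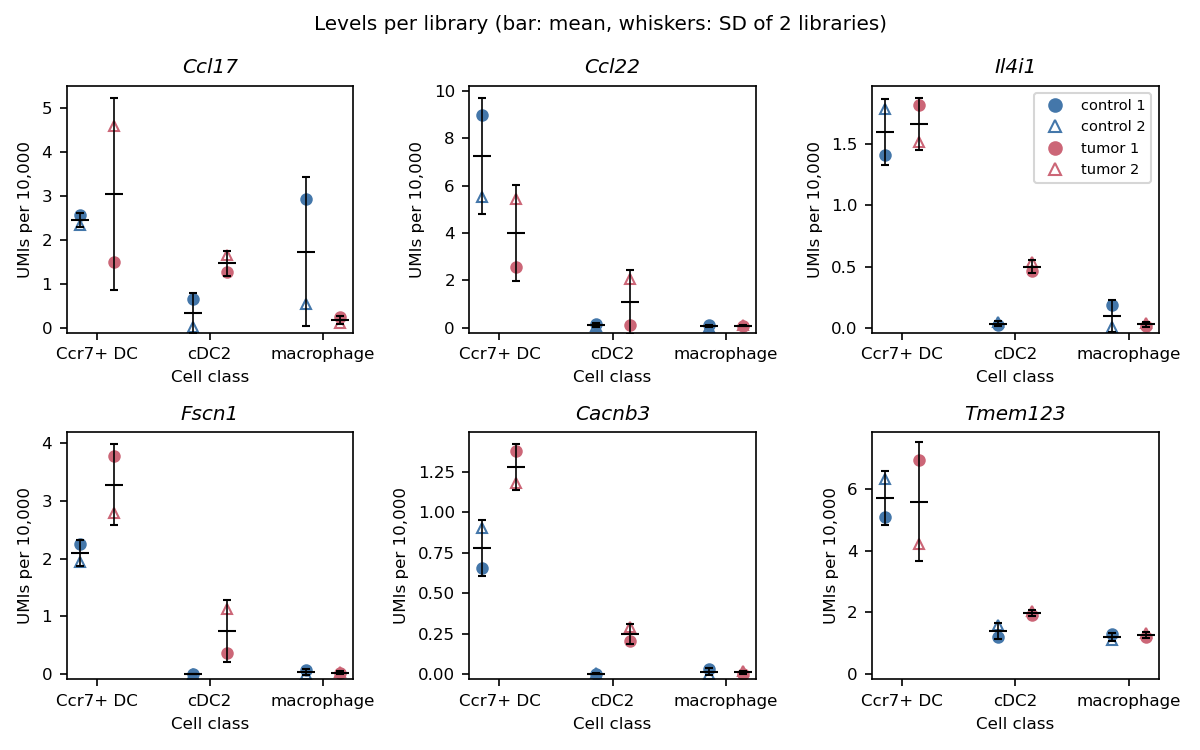
Levels (UMIs per 10,000) of the DC-associated genes in Ccr7+ DC, cDC2 and macrophages, with a point per library, a bar for the mean and whiskers for the SD of 2 libraries. Ccl22 in Ccr7+ DC spans 2.57 to 8.99, and Fscn1 in cDC2 is 0 in both control skins and 0.370 and 1.13 in tumors.

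The tumor difference in the DC classes was compared directly for the 6 genes. For Il4i1 it was smaller in Ccr7+ DC than in cDC2 by 3.57 ± 0.49 on the log2 scale (log2 difference -3.57, edgeR interaction term, adjusted p = 0.031), beside 0.121% of 8245 genes called for such a difference and 0.0849% called in this direction. Without the cDC2 of 6 to 8 markers it was -2.70 (adjusted p = 0.11), and it was also lost without control 1. The differences of the other 5 genes did not pass (adjusted p from 0.083 to 0.79).

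Receptor RNA was lower in the T cells of tumors. In CD8 T cells, all 3 genes tested were lower, beside 9.74% of 8173 genes called and 5.68% called lower. Ccr8 was at 1.12, 0.536, 0.0640 and 0.0385, with 79 of 143, 22 of 50, 17 of 283 and 2 of 40 cells holding a UMI. Both tumors lay far below both control skins (log2 fold change -3.96 ± 0.45, 15.6-fold lower, edgeR quasi-likelihood test, adjusted p = 0.0013). Ccr4 was at 0.0991, 0.190, 0.00883 and 0, from 16, 11, 4 and 0 UMIs, with a log2 fold change of -4.14 ± 0.79 (adjusted p = 0.011) that rests on these few counts. Tmem123 was at 2.93, 2.79, 1.70 and 1.58, with a log2 fold change of -0.92 ± 0.20 (adjusted p = 0.022). The call of Ccr8 held in all 12 alternatives, with a highest adjusted p of 0.0018. That of Ccr4 was lost without control 1 (adjusted p = 0.56), control 2 (0.19) or tumor 1 (0.074), and that of Tmem123 without control 1 (0.11) or control 2 (0.086). RNA of the macrophage genes C1qa, C1qb and C1qc in CD8 T cells was at 0.118, 0.0519, 0.506 and 1.04, and that of Cd3d, Cd3e and Cd3g at 12.5, 12.8, 16.9 and 14.1, both higher in each tumor than in each control skin, and their part in these results was not tested.

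In CD4 T cells without Foxp3, the same 3 genes were lower, beside 10.3% of 7819 genes called and 5% called lower. The class was set apart from Treg only by the lack of a Foxp3 UMI. Treg whose Foxp3 RNA was not captured can therefore be among these cells, and their part in the results was not tested. Ccr4 was at 1.68, 0.955, 0.262 and 0.587, with 44 of 78, 16 of 41, 21 of 142 and 31 of 104 cells holding a UMI (log2 fold change -1.81 ± 0.41, edgeR quasi-likelihood test, adjusted p = 0.022). Ccr8 was at 1.64, 1.11, 0.605 and 0.461, in 47, 26, 36 and 28 cells (log2 fold change -1.49 ± 0.29, adjusted p = 0.012). Both receptors were lower in each tumor than in each control skin, an order whose share over all genes was not counted. Neutrophils had no UMI of either receptor in any library, but at a median of only 2995 to 4291 UMIs per cell. Macrophages of control 1 had 11 Ccr8 and 3 Ccr4 UMIs, at levels of 0.0660 and 0.0180. Without control 1 neither call held (adjusted p = 0.26 and 0.14). Tmem123 was at 3.48, 3.39, 2.00 and 2.22 (log2 fold change -0.80 ± 0.21, adjusted p = 0.041), a call that was lost in 6 of 12 alternatives. CD4 T cells with UMIs of both receptors numbered 25 of 78, 9 of 41, 6 of 142 and 10 of 104. The median depth of these cells was 8542, 8193, 6660 and 8028 UMIs. RNA of the macrophage genes C1qa, C1qb and C1qc in them, at 0.0599, 0.201, 0.515 and 0.828, and of Cd3d, Cd3e and Cd3g, at 9.31, 10.2, 16.6 and 17.9, was higher in tumors, and its part in the result was not tested.

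Other T cells, which could be placed in none of the T cell classes, also had 3 of 3 genes lower, beside 14.3% of 8356 genes called and 8.86% called lower. Ccr4 was at 0.400, 0.372, 0.138 and 0.0933 (log2 fold change -1.71 ± 0.35, adjusted p = 0.013 in edgeR). Ccr8 was at 1.22, 0.601, 0.195 and 0.187 (-2.36 ± 0.41, adjusted p = 0.0066), and Tmem123 at 3.36, 3.63, 1.78 and 2.22 (-0.89 ± 0.19, adjusted p = 0.016). In natural killer (NK) cells only Tmem123 had enough counts, at 2.71, 3.04, 1.40 and 1.62, and was lower (-0.96 ± 0.19, adjusted p = 0.018), beside 5.74% of 6513 genes called and 3.27% called lower. The groups did not overlap for any of these, but the share of all genes without overlap was not counted. Leaving out 1 control skin ended each of these 4 calls: without control 2 the adjusted p was 0.19 for Ccr4, 0.14 for Ccr8 and 0.28 for Tmem123 in other T cells and 0.11 in NK cells. Without control 1 the call of Ccr8 alone held, and without tumor 1 that of Tmem123 in other T cells was also lost (0.069). DESeq2 did not call Ccr4 in other T cells (adjusted p = 0.080) or Tmem123 in NK cells (0.081), and stricter gates also lost Ccr4 in other T cells. In other T cells C1q RNA was at 0.129, 0.238, 0.650 and 0.700 and Cd3 RNA at 16.4, 14.8, 11.9 and 11.5, and their part in these results was not tested.

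Treg did not show a difference that passed the test, and 0 of 3 genes were called, beside 5.11% of 5758 genes. The Treg class, chosen by Foxp3, had the highest levels of Il2ra, Ikzf2 and Ctla4 of 15 classes. Ccr8 was at 1.02, 0.470, 0.677 and 0.334 in 32, 29, 108 and 53 cells, and its groups overlapped (log2 fold change -0.53 ± 0.44, adjusted p = 0.57). Ccr4 was at 0.580, 0.940, 0.278 and 0.562, with both tumors below both control skins (-0.92 ± 0.44, adjusted p = 0.27), and Tmem123 at 5.15, 3.89, 3.19 and 3.77 (-0.40 ± 0.24, adjusted p = 0.42). None of the 3 had an unadjusted p under 0.05, and 0 were called by DESeq2. The Treg and CD4 T cell differences were not told apart for Ccr8 (0.88 ± 0.40, adjusted p = 0.34) or Ccr4 (0.88 ± 0.49, adjusted p = 0.45), beside 2.3% of 7988 genes called for such a difference. Treg without a Foxp3 UMI can be in the CD4 T cell class, and their part in this comparison was not tested. In level, Treg and CD4 T cells of the same libraries did not differ past the threshold in Ccr4 (-0.43 ± 0.29), Ccr8 (-0.52 ± 0.24) or Tmem123 (0.52 ± 0.16, adjusted p = 0.093), beside 6.32% of 7988 genes called, while 8 of 11 genes of the tissue Treg list were higher in Treg, among them Klrg1 (3.44) and Ikzf2 (3.41).

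The Ccr8 difference between tumors and control skins was larger in CD8 than in CD4 T cells. The log2 difference of the tumor effects was -2.58 ± 0.40 (edgeR interaction term, adjusted p = 0.0029), beside 2.3% of 8511 genes called for such a difference and 1.52% called in this direction, and it held in 11 of 11 alternatives, with a highest adjusted p of 0.040. For Ccr4 (-1.73 ± 0.82) and Tmem123 (-0.13 ± 0.23) the adjusted p was 0.38 and 0.88. Treg without a Foxp3 UMI can be among the CD4 T cells, and their part in these differences was not tested.

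ILC2, chosen by Gata3, Il7r, Rora, Il1rl1, Il5 and Il13, numbered 229 and 181 in control skins and 19 and 7 in tumors. The class had the highest levels of Il7r, Rora, Il13 and Il5 of 15 classes. Those genes are part of its gate, so these ranks are no independent check. In control skin Ccr8 was at 2.38 and 1.31 and was found in 146 and 87 cells, Ccr4 was at 0.682 and 0.863 in 66 and 53 cells, and 46 and 33 cells had both. In tumor 1, the 19 ILC2 had 2 Ccr8 and 0 Ccr4 UMIs at a median of 2635 UMIs per cell against 6707 and 8053 in controls. No tumor test was made with so few cells. Against Treg of the same libraries (3 with at least 10 cells of both), the log2 difference was 0.94 ± 0.45 for Ccr8 (edgeR, adjusted p = 0.36) and -0.06 ± 0.46 for Ccr4, and 0 of 3 genes were called, beside 3.61% of 7502 genes, with 0 at an unadjusted p under 0.05. With the control skins alone, Ccr8 was higher in ILC2 by 1.41 (adjusted p = 1.5e-04), and with stricter gates by 1.47 (adjusted p = 2.0e-04).

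**Figure D5:**
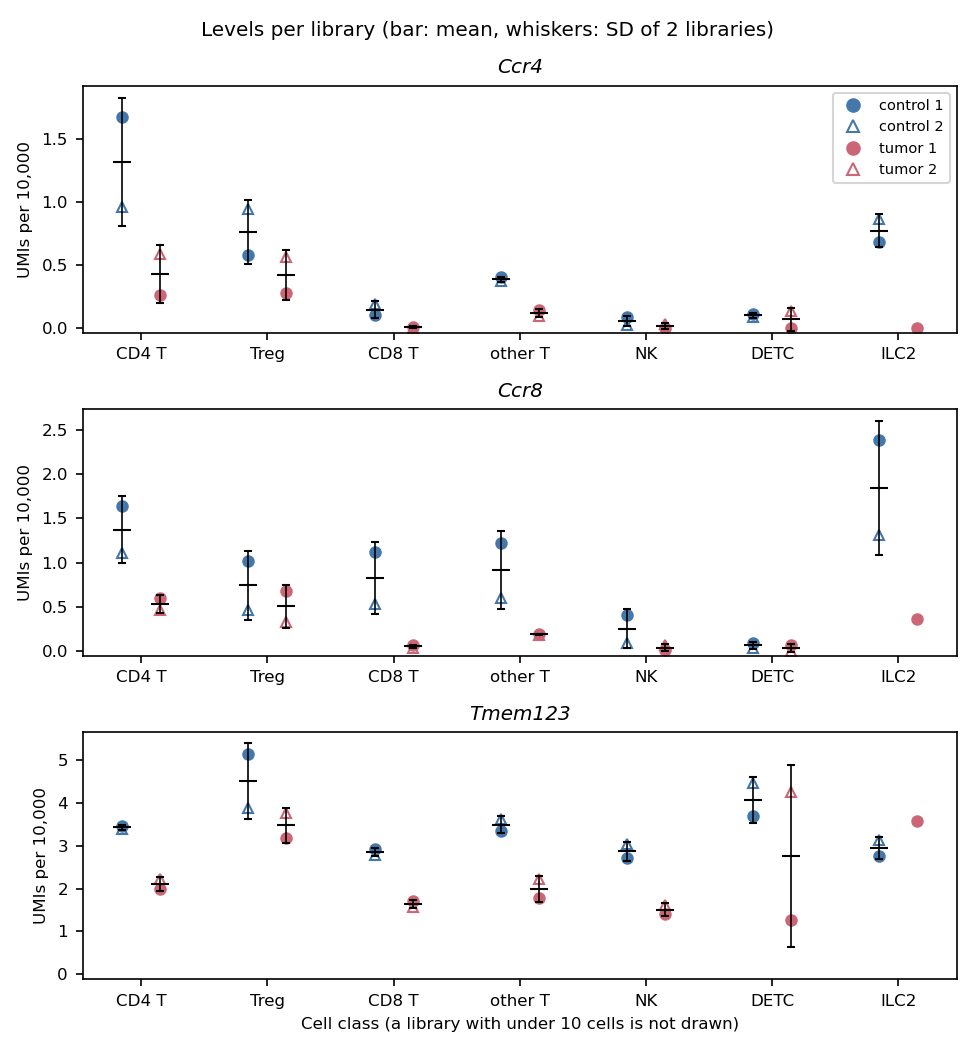
Levels (UMIs per 10,000) of Ccr4, Ccr8 and Tmem123 in lymphoid classes, with a point per library, a bar for the mean and whiskers for the SD of 2 libraries; libraries with fewer than 10 cells of a class are not drawn. Ccr8 in CD8 T cells goes from 1.12 and 0.536 in control skins to 0.0640 and 0.0385 in tumors, while in Treg the groups overlap.

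The other CCR8 ligands were read beside the receptors. Ccl1, which encodes a CCR8 ligand made by activated T cells, was higher in the CD4 T cells of tumors, at 0.0479, 0.126, 5.41 and 2.57, from 3, 3, 30 and 32 cells (log2 fold change 5.61 ± 0.52, edgeR quasi-likelihood test, adjusted p = 6.4e-04). In tumor 1 a single cell held 265 of the 662 UMIs. Of the CD4 T cells with Ccl1, 9 and 13 in tumors also had a Ccr8 UMI. Treg had 0, 0, 0 and 3 Ccl1 UMIs. Ccl8, a chemokine of macrophages, was at 3.0, 6.64, 17.2 and 11.7 in macrophages, both tumors above both control skins, without passing the test in that class. In CD4 T cells it was at 0.0839, 0.151, 0.360 and 0.440 and passed (1.77 ± 0.43, adjusted p = 0.030), and the part of the macrophage RNA in those cells, given above, was not tested. Both ligands tested in CD4 T cells were thus called, of 6 on the list, beside 10.3% of 7819 genes called. Ccl8 was not particular to CD4 T cells. In tumor 1 and tumor 2 it was at 0.252 and 0.676 in other T cells, 0.148 and 0.456 in Treg and 0.104 and 0.462 in CD8 T cells.

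Some other chemokine receptors and T cell genes also differed between tumors and control skins. In CD8 T cells 4 of 8 other chemokine receptors were lower in tumors and none higher, beside 5.68% of all genes called lower, namely Ccr10, Cxcr3 (-2.57), Cx3cr1 (-2.39) and Cxcr6 (-0.98), with a median of -1.0 over the list against 0.07 over all genes. Ccr10, a skin-homing receptor, had 31 and 9 UMIs in control skins and none in tumors (at least 30.7-fold lower, with a floor of 3 counts over the group). In CD4 T cells 3 of 9 were lower, beside 5% of all genes, namely Cx3cr1 (-2.48), Cxcr6 (-1.65) and Cxcr4 (-1.03), and Ccr7 was higher (1.68), with a list median of -0.86. In other T cells 3 of 10 were lower, beside 8.86% of all genes, namely Ccr6 (-3.28), Cx3cr1 (-1.59) and Cxcr6 (-1.58), while Ccr7 was higher (1.09) and the list median was 0.16. In Treg 3 of 9 were lower, beside 5.11% of all genes called in either direction, namely Ccr6 (-2.24), Cxcr6 (-2.10) and Ccr3 (-2.02), with a list median of -0.60. The list of tissue Treg and Th2 genes was mixed. Beside its counts, 10.3% of all genes were called in either direction in CD4 T cells and 9.74% in CD8 T cells. In Treg the share was 5.11% and in other T cells 14.3%. In CD4 T cells Gata3, the Th2 master regulator, was lower (-1.10), and Klrg1 (3.52) and Ikzf2 (1.67) were higher, of 11 genes with a median of 0.42. Klrg1 and Ikzf2 were also higher in Treg than in CD4 T cells. In CD8 T cells Il2ra (-1.51) and Gata3 (-1.29) were lower, and Tnfrsf4 (1.81) and Ikzf2 (1.01) higher, of 9 genes with a median of 0.23. In Treg, Il1rl1, the IL33 receptor (-2.12), and Il2ra (-1.52) were lower and none of the 11 genes was higher. In other T cells Areg (-1.84), Il2ra (-1.01) and Gata3 (-0.99) were lower, and Batf (1.04) and Tnfrsf4 (0.66) higher, of 11 genes. The values of single genes are log2 fold changes that passed an adjusted p of 0.05 in edgeR.

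Over all immune cells of a library, the 8 genes split into groups. In such sums, fewer cells of a type and less RNA per cell cannot be told apart. Of 8 genes tested 5 were called, 2 higher and 3 lower, beside 27.8% of 15953 genes called, 11.8% higher and 15.9% lower. Fscn1 was at 0.0565, 0.0456, 0.205 and 0.194 in control 1, control 2, tumor 1 and tumor 2 (log2 fold change 1.84 ± 0.18, edgeR quasi-likelihood test, adjusted p = 0.0061), and Cacnb3 at 0.0238, 0.0274, 0.0768 and 0.0627 (1.31 ± 0.25, adjusted p = 0.022). Both tumors were above both control skins for these 2 genes, and the share of all genes in such an order was not counted. Ccr8 was at 0.453, 0.131, 0.0376 and 0.0485 (-2.89 ± 0.62, adjusted p = 0.030), Ccr4 at 0.191, 0.106, 0.0286 and 0.0502 (-2.05 ± 0.42, adjusted p = 0.027) and Tmem123 at 2.68, 2.63, 1.52 and 1.60 (-0.90 ± 0.12, adjusted p = 0.012), all lower in each tumor than in each control skin. The ligands did not pass: Ccl22 was at 0.271, 0.172, 0.170 and 0.305 (-0.02 ± 0.36, adjusted p = 0.97) and Ccl17 at 0.375, 0.267, 0.273 and 0.251 (-0.42 ± 0.19, adjusted p = 0.16), and their groups overlapped. Il4i1 was at 0.0734, 0.0603, 0.110 and 0.110, also without passing (0.59 ± 0.19, adjusted p = 0.075). The calls of Cacnb3, Ccr4 and Ccr8 were each lost without some single libraries: Cacnb3 without either control (highest adjusted p = 0.16), Ccr4 without control 1 or tumor 1 (highest adjusted p = 0.093) and Ccr8 without tumor 1 or tumor 2 (highest adjusted p = 0.099).

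The makeup of the sorted cells moved along with these sums. Macrophages numbered 100, 264, 2157 and 774, ILC2 229, 181, 19 and 7, and dendritic epidermal T cells 614, 691, 15 and 23. Setting the control levels of each class to the tumor mix of classes, as a calculation with no test, took Ccr8 from 0.292 to 0.169, where the tumors had 0.0430, and Ccr4 from 0.148 to 0.0878, where the tumors had 0.0394. Tmem123 went from 2.65 to 1.77, near the 1.56 of the tumors, and Fscn1 from 0.0511 to 0.0890, below the 0.199 of the tumors. The other way round, tumor levels in the control mix gave 0.146 for Ccr8, 0.0692 for Ccr4, 2.05 for Tmem123 and 0.141 for Fscn1. Ccl17 went from 0.321 to 1.20 with control levels in the tumor mix, against 0.262 in the tumors, with its control macrophage level resting mostly on 1 cell a library. How much of each difference came from the mix was not tested. For Fscn1, cells outside the named classes counted too, since the level of unassigned cells was 0.145, 0.182, 1.63 and 1.46. Cells with Ccr7, low C1q RNA and 6 to 8 maturation markers that lay outside the Ccr7+ DC gate numbered 0, 2, 11 and 3. They held 0, 19, 232 and 175 Fscn1 UMIs, and the tests within Ccr7+ DC leave them out.

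Within classes, 43 pairs of gene and class were tested over 13 classes, and 13 passed, 10 of them lower in tumors and 3 higher. In single classes 0% to 15.4% of all genes were called in either direction, and the share over all pairs together was not counted. The 10 lower pairs were Ccr4 and Ccr8 in CD8, CD4 and other T cells and Tmem123 in these and NK cells, and the 3 higher ones Fscn1, Cacnb3 and Il4i1 in cDC2. In dendritic epidermal T cells, none of Tmem123 (3.69, 4.46, 1.26 and 4.27), Ccr4 and Ccr8 passed, beside 0.0581% of 10325 genes called. In edgeR none of the members tested passed in cDC1 (4.25% of all genes called there), macrophages (0.49%), monocyte-like cells (0.549%), neutrophils (0%) and mast cells (0.218%). At an unadjusted p under 0.05 there was 1 member in cDC1 and 1 in macrophages, and DESeq2 called Ccl17 in macrophages.

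Finally, the genes most like each member were ranked over 56 sums (1 for each class and library) and 7755 genes, by Pearson's r of log2 levels, as a description in which sums share libraries and depth. Nearest to Ccl22 were Fscn1 (0.861), Strip2 (0.843) and Cacnb3 (0.834). Nearest to Ccl17 were Cacnb3 (0.736), Mgl2, a cDC2 lectin (0.731), and Fscn1 (0.730), with Ccl22 at 0.699. Il4i1 was nearest to H2-Eb2 (0.922), Gm42601 (0.913) and Fscn1 (0.908). Ccr4 was nearest to Ccr8 (0.848), Sv2c (0.845) and Icos, a costimulatory receptor (0.828), and Ccr8 to Gm15511 (0.943), Icos (0.902) and Rora, a transcription factor of ILC2 (0.893).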

How the data were processed

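The authors mapped reads to mouse genome mm10 with Cell Ranger 7.1.0, per the labels, and deposited raw UMI counts per gene and cell, 1 table per library. The genotype of the tumor model is not reported here. How intronic reads were handled is not given in the sources used here. A cell was kept with 100 or more genes, 1000 or more UMIs, no more than 15% of UMIs from mitochondrial genes and a complexity (log10 genes over log10 UMIs) of 0.8 or more, 40 to 229 likely doublets per library were removed by a score against simulated doublets, and cells were gated by marker genes. Thresholds of the gates were set after the marker distributions had been seen. The 8 genes and the pathway lists were chosen with earlier results of these data known.

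Counts were summed per library and class (at least 10 cells in each) and tested with edgeR 4.0.16 (R 4.3.3; quasi-likelihood test, TMM factors, filterByExpr, Benjamini-Hochberg over all genes of a comparison, threshold 0.05). SE is that of the log2 fold change, derived as its absolute value over the square root of the quasi-likelihood F statistic and not estimated directly by the fit. Intervals are exact 95% and cover counting error only. All 8 genes were named, and of each list at most 5 called genes per class by size. Alternatives were DESeq2 1.42.0, other size factors, no low-count filter, a replicate block, stricter gates, other cell filters and leaving out each library. The test was also run on simulated counts that gave every gene the same dispersion. That run cannot show how far the calls above hold in these libraries.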

Additional observations from a re-analysis of the deposited data

Results flagged for a closer look

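The tumor difference of Il4i1 was smaller in Ccr7+ DC than in cDC2, with a log2 difference of -3.57 (edgeR interaction term, adjusted p = 0.031). This result lost its call without the cDC2 of 6 to 8 markers, and also without control 1. It was drawn out because the effects of the same contrast differed between cell classes in a direct test. The levels behind it were 1.41, 1.79, 1.82 and 1.52 in Ccr7+ DC and 0.0185, 0.0480, 0.460 and 0.533 in cDC2, in control 1, control 2, tumor 1 and tumor 2, so only cDC2 had both tumors above both control skins.

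Ccr8 was lower in tumors by more in CD8 than in CD4 T cells, with a log2 difference of -2.58 (edgeR interaction term, adjusted p = 0.0029). This result was drawn out for the same reason. Treg without a Foxp3 UMI can be among these CD4 T cells, and their part was not tested.

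Fscn1 was also found in cells left out of every comparison. In the non-immune cells (collagen or keratin RNA, 41 and 93 cells in tumors, 41 and 82 in control skins) its level was 0.969 in tumor 1 and 1.09 in tumor 2, above the 0.135 and 0.199 of control 1 and control 2.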

How the results depend on the processing

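With 2 libraries a group, single libraries decided many calls, and where 1 was left out the lone library of its group was assumed to vary like the other group. Of 25 calls of the 8 genes, 6 held under every alternative run for them (Fscn1 and Tmem123 over all immune cells, Ccr8 in CD8 T cells, Cacnb3 and Tmem123 in Ccr7+ DC against cDC2, and the Ccr8 difference between CD8 and CD4 T cells), while 14 were lost without control 1, 13 without control 2, 6 without tumor 1 and 2 without tumor 2. Calls over all immune cells numbered 3 to 4 without single libraries, calls within classes 3 to 18, those of Ccr7+ DC against cDC2 2 to 5, those of ILC2 against Treg 0 to 2, and those of tumor effects between classes 2 to 5. Calls within classes rose to 22 with no filter on low counts. The tumor effects between classes gave 6 calls with no filter, 5 without the highest cell of each library, and 1 without cDC2 of 6 to 8 markers. Treg against CD4 T cells gave 1 call without the highest cell, and ILC2 against Treg 2 with stricter gates. With the replicate number as a block, 2 calls over all immune cells were left, and 14 within classes. The labels do not say whether the number pairs the samples. The replicate differences of control skins and tumors correlated at 0.0023 over all cells and at -0.065 to 0.30 in single classes. Such values cannot show whether the samples were handled in pairs. The cause of these changes was not tested. The share of all genes called under each alternative was not counted, so these counts are no result about the 8 genes.

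Signs turned only for differences that had not been called. The log2 fold change of Ccl22 over all cells became 0.069 without removal of doublets and 0.041 without the highest cell, and ran from -0.54 to 0.35 without single libraries. That of Ccl17 in Ccr7+ DC became -9.8e-05 with the replicate block, -0.72 without the mitochondrial filter, and ran from -0.75 to 0.78 without single libraries. That of Il4i1 in Ccr7+ DC became 0.021 with no low-count filter, 0.010 without the mitochondrial filter and 0.24 without the highest cell, and ran from -0.25 to 0.25 without single libraries. That of Tmem123 in Ccr7+ DC ran from -0.57 to 0.24 without single libraries. That of Ccl22 in cDC2 became -0.77 without cells of 6 to 8 markers and ran from -0.11 to 4.01 without single libraries. That of Ccr8 in Treg ran from -1.18 to 0.11. The ILC2 and Treg difference of Ccr4 became 0.41 with stricter gates, 0.017 without the highest cell, and ran from -0.52 to 0.13 without single libraries. Of 544 alternatives for 46 results, 466 kept direction and side of the threshold. The alternatives that leave out the highest cell or the cDC2 of 6 to 8 markers were chosen after seeing the data. The cDC1 and dendritic epidermal T cell classes were not run with stricter gates, which left fewer than 10 cells in a library.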

Other observations

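In mast cells of control 1 the Ccl17 level was 7.89, all of it from 1 cell. Mast cells therefore held the second highest mean of Ccl17 over the libraries among the 15 ranked classes. Cells with MHC class II RNA that could be placed in no named class had Ccl17 at 5.78 and 3.99 in the control skins, from 4 cells each, and at 0.466 and 0 in the tumors, from 11 and 0 cells. Neither class was tested for Ccl17.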
